A study of Mus musculus with 18 samples.

Results

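The genes described here are interferon-stimulated genes, measured 3 weeks after poly(I:C) in sorted mouse bone marrow monocytes and neutrophils. The genotypes compared were Zeb2(fl/fl) controls without Cre and Zeb2(fl/fl) mice carrying Mx1-Cre. Each cell type also had 1 array of a control not given poly(I:C). A list of 37 gene symbols defined them. A gene was measured where a probe set was annotated to that symbol alone, and the brightest was kept for the 1 gene, Irf1, with more than 1. This gave 34 of the 37 genes, of 19938 genes with such a probe set in all. All 34 passed the filter on low values, as did 13387 genes in all. Isg15 and Gbp2 shared their probe sets with other symbols and Ifi44 had no probe set under that symbol, so these 3 genes have no value here.

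Type I interferons bind a receptor that signals through the kinases Jak1 and Tyk2 to transcription factors. Stat2 and Irf9 take part in binding the interferon-stimulated response element, a DNA motif in the promoters of antiviral genes. Poly(I:C), a synthetic double-stranded RNA, is sensed as viral RNA and sets off interferon production, and most of these genes are known to rise within hours and to subside over days.

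The response element was searched for as its core, GAAA, any 2 bases and GAAA again, on either strand. RefSeq promoter windows (build GRCm38.p6) of 300 bases, 250 before and 50 after a start site, were found for 26 of the 34 genes. The core was in the window of 13 of these 26 genes (50%), against 3.99% of the 27025 genes with a window. The longer form, in which the core is followed by CT, was in 8 of the 26 (30.8%), against 0.303% of all genes. The gamma-activated motif TTCNNNGAA, which reads the same on both strands, was in 9 of the 26 (34.6%), against 9.55%. A match is a stretch of letters, not a shown binding site.

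The promoters printed are those of Stat2, Gbp3, Ifitm3 and Oas1a, the 4 genes with the smallest p for the genotype difference in monocytes among those with the core, and those of Samd9l and Oas3, the genes furthest above monocytes in control neutrophils. Each line gives the 250 bases before the start site in the direction of the gene, with the core in capitals. For Ifitm3, whose matches lie after the start site, it gives the first 30 transcribed bases.
Stat2, chr10:128270248-128270497, plus strand: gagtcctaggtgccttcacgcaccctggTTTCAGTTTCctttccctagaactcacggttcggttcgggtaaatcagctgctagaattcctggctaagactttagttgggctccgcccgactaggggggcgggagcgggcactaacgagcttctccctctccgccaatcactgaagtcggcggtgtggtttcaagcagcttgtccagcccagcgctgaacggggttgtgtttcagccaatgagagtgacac
Gbp3, chr3:142559794-142560043, plus strand: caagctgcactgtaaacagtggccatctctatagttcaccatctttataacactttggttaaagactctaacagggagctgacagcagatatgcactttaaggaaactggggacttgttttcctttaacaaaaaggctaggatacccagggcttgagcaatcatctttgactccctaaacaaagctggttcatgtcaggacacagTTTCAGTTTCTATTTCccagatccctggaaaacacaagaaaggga
Ifitm3, chr7:141010715-141010744, minus strand: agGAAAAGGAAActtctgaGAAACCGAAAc
Oas1a, chr5:120907526-120907775, minus strand: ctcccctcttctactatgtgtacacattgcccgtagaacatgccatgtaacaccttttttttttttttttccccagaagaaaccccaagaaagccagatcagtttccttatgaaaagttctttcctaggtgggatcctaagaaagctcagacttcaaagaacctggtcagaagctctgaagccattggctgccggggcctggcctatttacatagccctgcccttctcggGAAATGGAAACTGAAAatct
Samd9l, chr6:3399572-3399821, minus strand: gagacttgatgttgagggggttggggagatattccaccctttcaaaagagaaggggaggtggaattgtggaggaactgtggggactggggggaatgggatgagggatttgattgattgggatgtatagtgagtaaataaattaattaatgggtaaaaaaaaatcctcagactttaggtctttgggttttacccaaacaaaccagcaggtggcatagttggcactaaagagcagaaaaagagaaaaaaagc
Oas3, chr5:120777660-120777909, minus strand: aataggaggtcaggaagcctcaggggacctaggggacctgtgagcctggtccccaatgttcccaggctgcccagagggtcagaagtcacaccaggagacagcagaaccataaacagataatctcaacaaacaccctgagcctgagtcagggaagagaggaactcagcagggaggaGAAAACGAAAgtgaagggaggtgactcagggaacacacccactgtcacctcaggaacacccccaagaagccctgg
In Gbp3 and Oas1a 2 overlapping matches run together as 16 capital letters, close to the start site. With the start site at 1, the core of Stat2 begins at position -222 and that of Oas3 at -75. Samd9l has no match to the core in these letters. No promoter window was used for Usp18, Oas2, Mx1, Mx2, Dhx58, Zbp1, Rtp4 and Parp14.

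Expression was measured on 18 arrays, 9 of them from Ly-6C(hi) monocytes and 9 from neutrophils, all of C57BL/6 mice. Controls were Zeb2(fl/fl) without Cre, and the mice labelled Zeb2-deficient were Zeb2(fl/fl);Mx1-Cre(tg), called Mx1-Cre below. Each cell type had 4 control and 4 Mx1-Cre arrays from mice given poly(I:C), as 2 injections of 150 µg into the peritoneum within 48 h, and 1 array of an untreated Zeb2(fl/fl) control. Every mouse carried the floxed alleles, and every Mx1-Cre mouse had received poly(I:C). The Cre is driven by the interferon-inducible Mx1 promoter, which is active in many cell types, so the deletion need not be limited to the sorted cells. As no mouse had Cre without floxed Zeb2, the effects of Cre and of the loss of Zeb2 cannot be told apart. Nothing in the labels ties each array to a mouse of its own, and p-values therefore measure the spread between arrays, which may be technical.

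Values are log2 intensities. The 40th percentile of an array, the level a gene had to exceed in 4 arrays to be tested, was 4.28 to 4.37 in monocytes and 4.40 to 4.50 in neutrophils. The mean of the Ly-6C(hi) monocyte markers was 9.57 to 9.80 in control monocytes and 5.06 to 5.26 in control neutrophils, and that of the neutrophil markers 7.01 to 8.28 and 11.8 to 11.9. Zeb2 was 9.86 to 10.08 in control and 8.74 to 9.84 in Mx1-Cre monocytes, and 6.86 to 7.54 and 7.10 to 8.25 in the neutrophils. The deleted stretch is not given, so this probe set does not check the deletion. The accessions form 2 runs, each with arrays of both cell types and both genotypes. The first 10, called set A, hold replicates 1 and 2 of each poly(I:C) group and the untreated controls (replicate 3), and the last 8, called set B, hold the others. The labels do not say what the runs are, but the interferon-stimulated genes differed between them, and values are given for both.

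Control monocytes and control neutrophils, both 3 weeks after poly(I:C), differed in most of these genes. In limma's test 26 of 34 differed (58.6% of all genes tested did). Of these, 17 were higher in monocytes (29.9% of all genes were) and 9 were higher in neutrophils (28.7% of all). The median difference was 0.60 (log2) toward monocytes, against -0.077 over all genes, with 21 genes above 0 (45% of all genes) and 13 below (55%). For 16 genes every monocyte array was above every neutrophil array (28.6% of all genes) and for 8 every one was below (27.6%). The GTPases, the membrane factors and the genes acting on nucleotides each lay on 1 side of 0, and the other groups of several genes held genes on both sides.

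The GTPases stood furthest apart. Mx1, an antiviral dynamin-like GTPase that C57BL/6 mice carry in a form without its function, read 6.79, 6.85, 7.09 and 7.08 in control monocytes and 3.46, 3.76, 3.29 and 3.38 in control neutrophils (replicates 1, 2, 4 and 5, as in all lists of control values below). The monocyte mean was 6.95 ± 0.15 and the neutrophil mean 3.47 ± 0.20 (SD, n = 4 each), a difference of 3.48 ± 0.17 (SE). Mx2, its neighbour and relative, read 6.03, 6.28, 6.24 and 5.80 against 2.46, 2.53, 3.01 and 2.44, a difference of 3.47 ± 0.25 (SE). Mx1 and Mx2 are both annotated as transcribed pseudogenes in build GRCm38.p6. The neutrophil values of both lay under the 40th percentile of every array, so the monocyte signal is clear and the size of the difference is not.

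Gbp3, a guanylate-binding protein, read 6.62, 7.15, 7.11 and 7.16 in control monocytes and 3.95, 4.45, 3.83 and 3.82 in control neutrophils, a difference of 3.0 ± 0.27 (SE). Only 1 of these 4 neutrophil arrays exceeded its 40th percentile. Bst2 (tetherin, which holds budding viruses at the membrane) was higher in monocytes by 2.10 ± 0.24, Lgals3bp (a secreted glycoprotein) by 2.14 ± 0.24, Xaf1 (a promoter of cell death) by 1.66 ± 0.23 and the Z-nucleic acid sensor Zbp1 by 1.37 ± 0.21 (all log2 ± SE). The highest limma adjusted p among these genes was 1.86e-05, that of Zbp1.

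Other members were higher in neutrophils. Samd9l, a restriction factor that limits translation in infected cells, read 10.39, 10.60, 10.67 and 10.79 in control neutrophils and 8.92, 9.24, 9.12 and 9.10 in control monocytes. The difference was -1.51 ± 0.13 (SE), and the arrays did not overlap. Oas3, an enzyme whose 2-5A product switches on RNase L, read 7.10, 7.30, 7.90 and 8.13 in neutrophils and 5.55, 6.39, 6.18 and 6.84 in monocytes, a difference of -1.36 ± 0.24 (SE). Isg20, an exonuclease, read 7.43, 7.16, 7.38 and 7.45 in neutrophils and 5.53, 6.21, 6.36 and 6.65 in monocytes, a difference of -1.17 ± 0.19 (SE). For both, each neutrophil array was above each monocyte array.

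Within the 2-5A synthetase group Oas1a went the other way, 0.81 ± 0.32 higher in monocytes (limma adjusted p = 0.0384), while Oasl1 was lower there (-0.49 ± 0.19). Oasl2, another relative, read 7.79, 7.88, 8.01 and 8.37 in control neutrophils and 7.12, 7.61, 7.46 and 7.68 in control monocytes (-0.55 ± 0.18), without overlap. The RNA sensors split as well. Ddx58, which encodes RIG-I, read 8.51, 8.51, 8.59 and 8.71 in control neutrophils and 7.19, 7.59, 7.59 and 7.73 in control monocytes, whereas Ifih1, which encodes MDA5, was 0.71 ± 0.21 and Dhx58, which encodes LGP2, 0.49 ± 0.16 higher in monocytes. Of the transcription factors, Stat2 (1.31 ± 0.18; 6.54, 6.57, 6.95 and 6.91 in control neutrophils) and Irf7 (0.82 ± 0.23), the factor that amplifies interferon-alpha production, were higher in monocytes. Irf9 differed by 0.27 ± 0.20 and Irf1 by -0.14 ± 0.15, which did not pass.

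Ifitm3, which blocks viral entry at endosomes, was bright in both cell types, at 12.12 ± 0.10 (SD, n = 4) in control monocytes and 12.01 ± 0.12 (SD, n = 4) in control neutrophils (11.91, 11.93, 12.04 and 12.17). The 2 cell types overlapped. Rsad2 (viperin), Cmpk2 and Isg20, which act on nucleotides or RNA, were all higher in neutrophils. Of the Ifit genes, whose proteins bind foreign RNA, Ifit2 was 1.17 ± 0.25 higher in monocytes, with only 2 of 4 control neutrophil arrays above the 40th percentile, so the size is uncertain, and Ifit1 and Ifit3 did not differ beyond the threshold. Usp18, the protease that removes Isg15 and damps receptor signalling, read 6.64, 7.37, 7.41 and 7.01 in monocytes and 6.20, 6.24, 6.45 and 6.54 in neutrophils. It was higher in monocytes by 0.74 ± 0.22 (SE), without overlap.

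**Figure D1:**
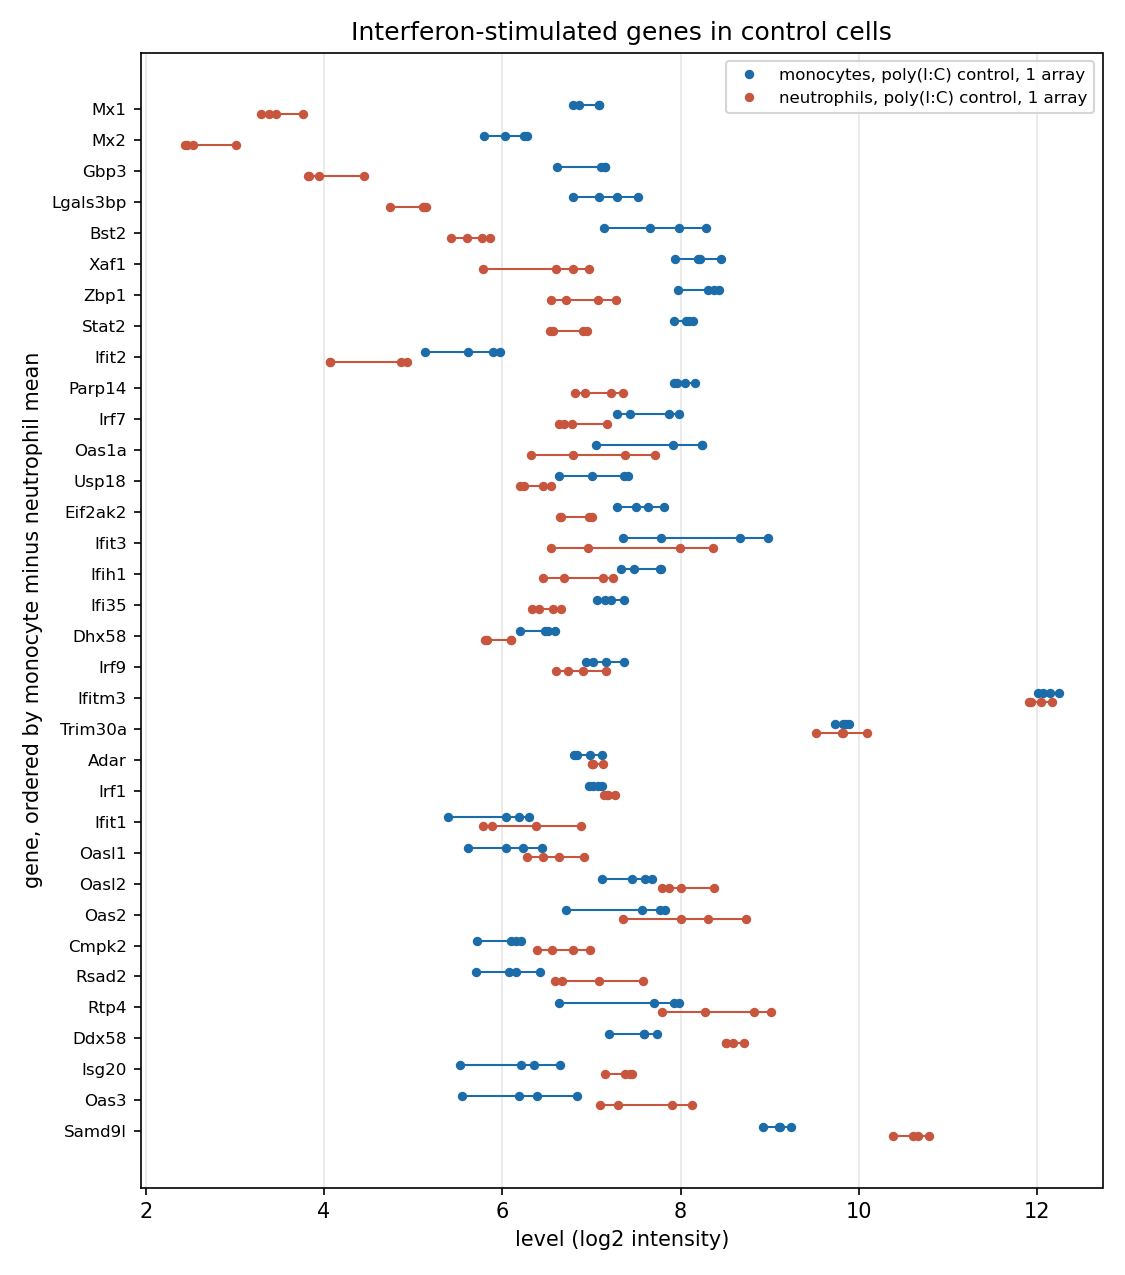
Levels (log2 intensity, x axis) of 34 interferon-stimulated genes (y axis, ordered by the difference of the means) in poly(I:C)-treated controls. Points are single arrays, 4 for each cell type, and lines span their range; Mx1, Mx2 and Gbp3 at the top lie furthest toward monocytes, and Samd9l, Oas3 and Isg20 at the bottom toward neutrophils.

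The untreated controls were set beside the controls of the same cell type taken 3 weeks after poly(I:C). There was 1 untreated array per cell type, so this comparison has no test, and both untreated arrays were in set A. In monocytes 27 of the 34 genes were below the mean of the 4 treated controls (43.4% of all genes), with a median of -0.23 against 0.031 over all genes. Of the 34, 9 were below all 4 treated arrays (15.4% of all genes), 1 was above all 4 (22.6%), and 3 were lower by more than 1.5-fold (0.814% of all genes). In neutrophils 28 were below the mean (48.7%), with a median of -0.14 against 0.0055, 9 were below all 4 arrays (18.6%), 1 was above all 4 (18.4%), and 4 were lower by more than 1.5-fold (0.844%). No member was higher by 1.5-fold in either cell type (0.896% and 0.5% of all genes).

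Oas1a had the largest shortfall in both cell types. Its untreated value was 6.85 in monocytes, where the treated controls read 7.05, 7.92, 8.24 and 8.25, and 6.12 in neutrophils, where they read 6.33, 6.79, 7.72 and 7.38. The untreated array was below all 4 in each case, by 1.01 and 0.94 from their mean. The treated array nearest to it was in set A in both cell types.

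Ifit3 was 7.46 in the untreated monocytes and 6.80 in the untreated neutrophils. The treated monocyte controls read 7.35, 7.79, 8.67 and 8.98 and the treated neutrophil controls 6.96, 6.55, 8.0 and 8.37. The untreated values thus lay between the treated values of set A and below both of set B. The other genes past 1.5-fold were Oas3 in monocytes (-0.70), and Rtp4, a transmembrane protein chaperone (-0.83), and Zbp1 (-0.63) in neutrophils. Highest against the treated mean in monocytes was Cmpk2, a mitochondrial nucleotide kinase, at 6.26 untreated and 6.15, 6.21, 6.10 and 5.72 treated (0.22, above all 4 arrays). In neutrophils it was Gbp3, at 4.38 untreated, within the treated range (0.37). Bst2 in neutrophils was the only other member above all 4 arrays.

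Measured against the treated controls of set A alone, 2 arrays per cell type, the untreated median was -0.11 in monocytes and -0.032 in neutrophils, against 0.020 and -0.0090 over all genes. Lower by 1.5-fold were 1 gene in monocytes (0.583% of all genes) and 0 in neutrophils (1.08%). In monocytes 12 genes were below both of these controls (28.9% of all genes) and 4 above both (35.9%), and in neutrophils 12 were below (35.5%) and 6 above (31.6%). Against all 4 controls, 1 gene in monocytes (Oas1a; 0.0971% of all genes) and 0 in neutrophils (0.0598%) were lower by 2-fold. The treatment and the mouse cannot be told apart with 1 untreated array per cell type. In the comparison with all 4 controls the array set cannot be told apart from them either.

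**Figure D2:**
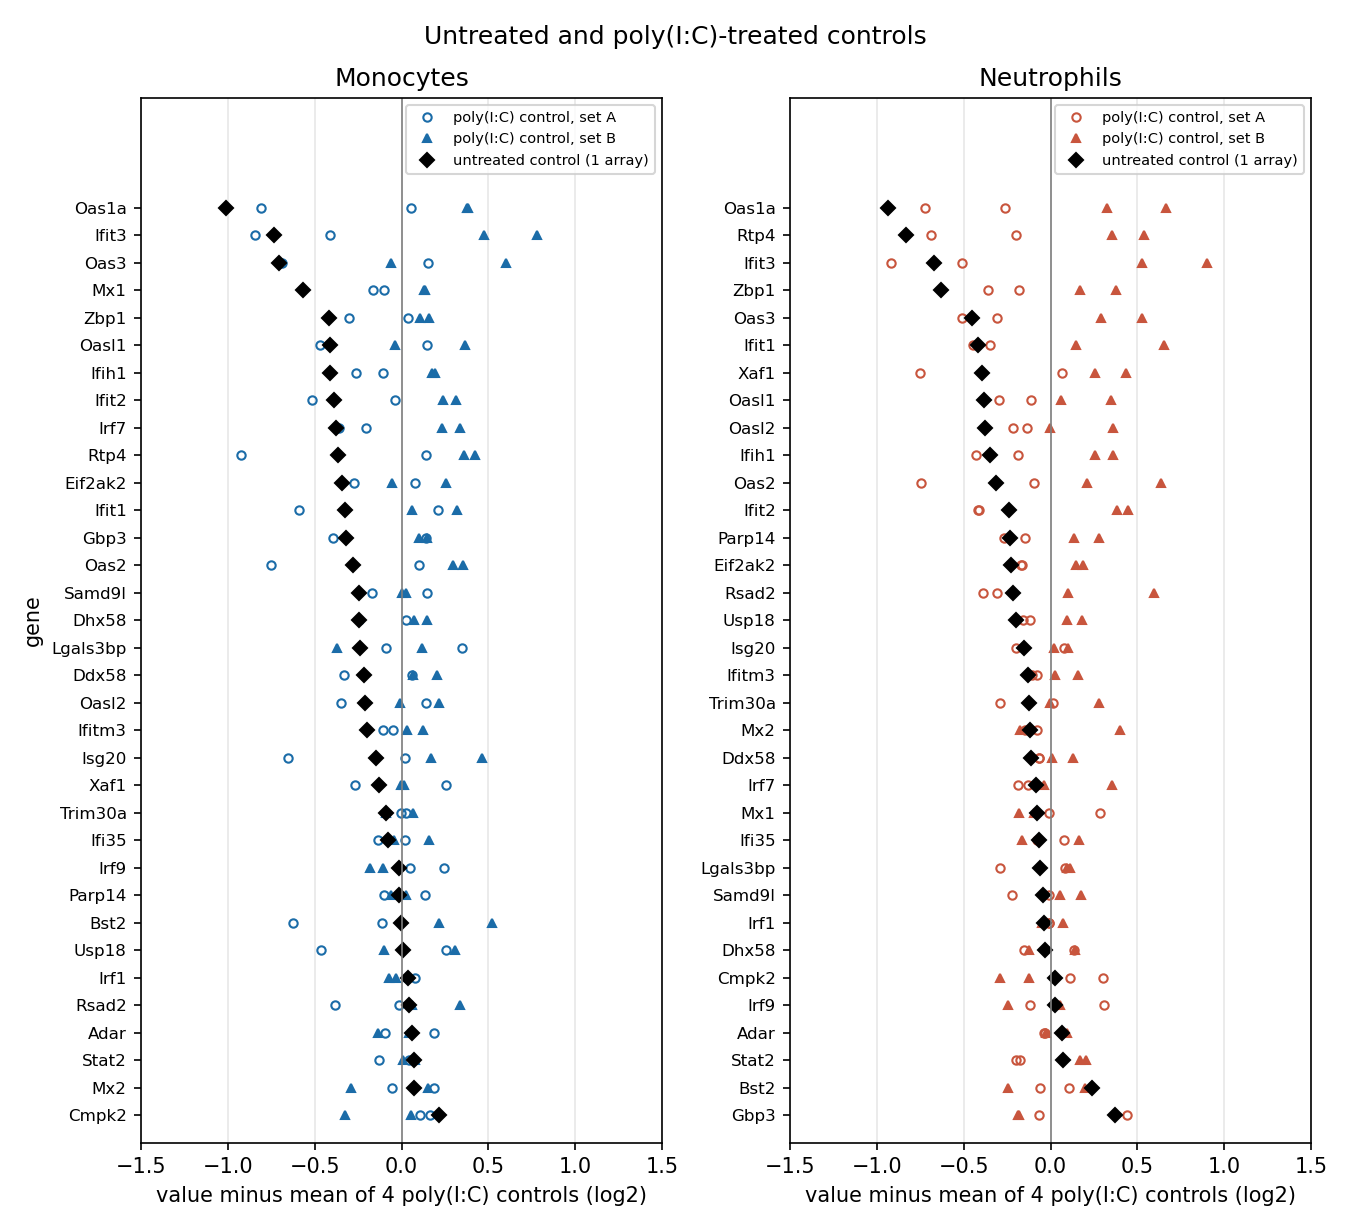
Each gene's value minus the mean of the 4 poly(I:C)-treated controls (log2, x axis) in monocytes (left) and neutrophils (right). Black diamonds are the untreated control (1 array); open circles are treated controls of set A and filled triangles those of set B. For Oas1a and Ifit3 the triangles lie to the right of the circles in both panels.

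The array sets differed in these genes among the treated arrays themselves. This comparison was chosen after the values were seen, and used limma with each group split by set. Ifit3 was higher in set B by 1.26 in control monocytes (adjusted p = 0.0273), by 1.43 in control neutrophils (adjusted p = 0.0128) and by 1.34 in Mx1-Cre neutrophils (adjusted p = 0.0098), and by 0.11 in Mx1-Cre monocytes (adjusted p = 0.842). It was the only member called in either control group, where 0.284% (monocytes) and 0.0747% (neutrophils) of all genes were called higher. Ifitm3 was called as well in Mx1-Cre neutrophils (0.33 higher, 0.956% of all genes).

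The rest of the list leaned the same way in 3 of the 4 groups. The median over the 34 genes was 0.23 higher in set B in control monocytes (26 genes above 0), 0.30 in control neutrophils (29 genes) and 0.27 in Mx1-Cre neutrophils (26 genes), against -0.012, -0.016 and -0.017 over all genes. In Mx1-Cre monocytes it was -0.24 (26 genes below 0), against -0.032, and Stat2 (-0.71) and Dhx58 (-0.60) were called lower (4.38% of all genes). With one set term over all groups, 7 genes were higher in set B, namely Ifit1, Ifit2, Ifit3, Oas1a, Oas3, Ifih1 and Rtp4 (4.12% of all genes), and Irf9 and Cmpk2 were lower (8.98%).

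In monocytes the Mx1-Cre arrays read below the controls for most of these genes. Of 34 genes 31 were below 0 (57.4% of all genes), and 3 above (42.6%), with a median of -0.44 against -0.034 over all genes. Most members varied together over the 16 treated arrays. Their correlation with the mean of the other members ran from -0.13 (Cmpk2) to 0.91 (Oas2). Counts of members on 1 side of 0, here and in the other comparisons, are therefore not counts of independent results. In limma's test 1 member fell, Lgals3bp (2.44% of all genes tested fell), and none rose (5.11% of all). At an unadjusted p under 0.05, 16 members were lower (9.91% of all genes) and 0 were higher (10.2%). Irf7, Ifitm3 and Ifih1 were the 3 members whose Mx1-Cre arrays were all below the control arrays (3.92% of all genes).

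Lgals3bp (gene 19039, chr11:118392747-118401959, GRCm38.p6) read 7.08, 7.52, 6.80 and 7.29 in control monocytes and 6.32, 7.07, 6.48 and 5.48 in Mx1-Cre monocytes (replicates 1 to 4, as in all lists of Mx1-Cre values below). The means were 7.17 ± 0.31 (SD, n = 4) and 6.34 ± 0.66 (SD, n = 4). It fell by 0.83 ± 0.24 (SE), or 1.78-fold, with limma adjusted p = 0.0448. Mx1-Cre replicate 2 lay within the control range and the other 3 below it. The call was lost in 6 of the 8 fits that left out a monocyte array, those without control 1 (adjusted p = 0.0765), 2 (0.139) or 5 (0.106) and without Mx1-Cre 1 (0.0862), 3 (0.0798) or 4 (0.151).

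Among the transcription factors, Irf7 read 7.44, 7.28, 7.87 and 7.98 in control and 6.81, 7.18, 7.27 and 6.44 in Mx1-Cre monocytes, a difference of -0.72 ± 0.23 (SE, limma adjusted p = 0.0663). The arrays did not overlap, but the highest Mx1-Cre and the lowest control were 7.27 and 7.28. Stat2 read 7.92, 8.10, 8.14 and 8.07 against 7.67, 8.02, 7.37 and 6.89, a difference of -0.57 ± 0.18 (SE, adjusted p = 0.0697). The 4 control values of Stat2 lay close together (SD 0.09) and the Mx1-Cre values were spread (SD 0.47). Irf9 (-0.29) and Irf1 (-0.14) had larger errors relative to their size.

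All 3 GTPases had unadjusted p-values under 0.05 and none passed the adjustment. Gbp3 read 6.62, 7.15, 7.11 and 7.16 in control and 5.80, 7.22, 6.25 and 5.42 in Mx1-Cre monocytes, a difference of -0.84 ± 0.27 (SE, limma adjusted p = 0.0709). Mx2 read 6.03, 6.28, 6.24 and 5.80 against 5.54, 5.97, 5.43 and 4.40, a difference of -0.75 ± 0.25 (SE, adjusted p = 0.0773). In both genes replicate 2 of the Mx1-Cre arrays lay within or above the control range and replicate 4 was the lowest. Mx1 itself differed by -0.44 ± 0.17 (adjusted p = 0.145).

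The 2-5A synthetases did not all lie on the same side of 0. Oas1a had the largest difference of the list, with 7.05, 7.92, 8.24 and 8.25 in control and 6.50, 7.0, 7.40 and 6.81 in Mx1-Cre monocytes (-0.94 ± 0.32, limma adjusted p = 0.0884). Oas2 differed by -0.53 ± 0.27, Oasl1 by -0.24 ± 0.19 and Oasl2 by -0.19 ± 0.18, and Oas3 by 0.29 ± 0.24 in the other direction, and none of the 5 passed. Besides Oas3, Isg20 (0.13) and Cmpk2 (0.072) were the only members above 0. Within set A, Oasl1, Oasl2, Irf1 and Samd9l were above 0 as well.

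All 6 genes of the sensor group were below 0. Ifih1 read 7.33, 7.48, 7.79 and 7.77 in control and 6.88, 7.30, 7.30 and 6.75 in Mx1-Cre monocytes, a difference of -0.53 ± 0.21 (SE, limma adjusted p = 0.137). Dhx58 (-0.45) and Zbp1 (-0.48) were the others with an unadjusted p under 0.05, and Ddx58 (-0.24), Adar (-0.14), the RNA-editing enzyme, and Eif2ak2 (-0.099), the kinase that halts translation, lay closer to 0. Ifitm3 read 12.01, 12.07, 12.15 and 12.25 against 11.83, 11.96, 11.84 and 11.66, a small difference with a small error (-0.30 ± 0.099, adjusted p = 0.0787). The Ifit genes differed by -0.42 (Ifit1), -0.29 (Ifit2) and -0.72 (Ifit3), Usp18 by -0.53 and Bst2 by -0.49.

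Of the remaining effectors, Parp14 (an ADP-ribosyltransferase, -0.56), Xaf1 (-0.54), Trim30a (a ubiquitin ligase, -0.41) and Rtp4 (-0.82) had unadjusted p-values under 0.05, and Ifi35 (-0.21) and Samd9l (-0.026) did not. Where samples are sorted bulk cells, a lower share of cells that express a gene and less RNA per cell cannot be told apart. The shares to set beside the marker counts that follow are 5.11% of all genes tested for a rise and 2.44% for a fall. In the Mx1-Cre monocytes 13 of 15 neutrophil markers rose, and their mean was 9.62 to 10.4 per array, against 7.01 to 8.28 in the control monocytes. Of 13 Ly-6C(hi) monocyte markers 4 fell, with a mean of 8.54 to 9.52 against 9.57 to 9.80. Of 8 plasmacytoid dendritic cell markers, a cell type that makes interferon, 3 rose and 1 fell, with a mean of 4.77 to 5.10 against 4.64 to 4.84. Counts here are of the markers tested, and means are over all markers measured. Measured were 12 plasmacytoid dendritic cell, 10 Ly-6C(low) monocyte and 12 macrophage markers. Of the 12 dendritic cell markers, 6 exceeded the 40th percentile in no control monocyte array given poly(I:C). Of 9 Ly-6C(low) monocyte markers 3 rose and 1 fell (mean 6.67 to 6.99 against 6.08 to 6.59), and of 8 macrophage markers 2 rose and 1 fell (5.05 to 5.28 against 4.79 to 5.01). Of 5 erythroid and of 5 eosinophil, basophil and mast cell markers 1 each rose, and 0 of 9 natural killer and T cell and 0 of 6 B cell markers passed. The part of these markers in the result was not tested. All members that read higher in control monocytes than in control neutrophils were below 0 in Mx1-Cre monocytes. Of the 13 that read higher in control neutrophils, Oas3, Isg20 and Cmpk2 were above 0. The others of the 13 were below 0, namely Ifit1, Oas2, Oasl1, Oasl2, Irf1, Ddx58, Adar, Rsad2, Rtp4 and Samd9l. Both differences use the same control monocyte arrays, with opposite sign, so the 2 directions are tied by construction. As 31 of all 34 members were below 0, this split is not a separate result.

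**Figure D3:**
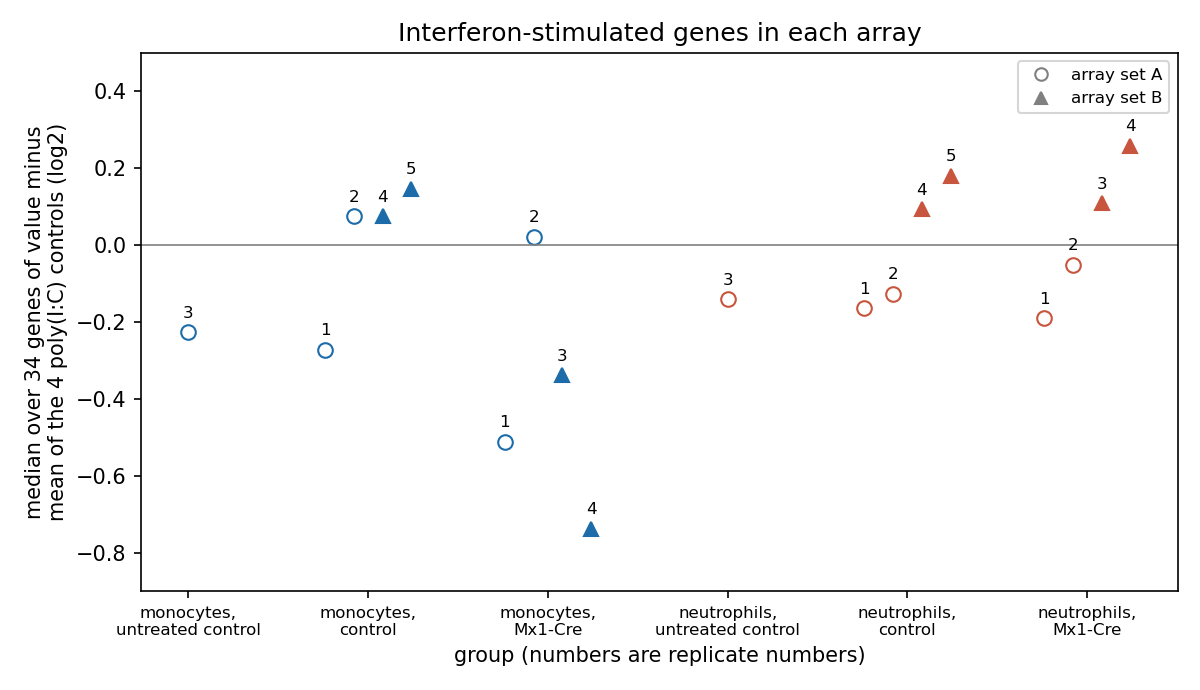
Median over the 34 genes of each array's value minus the mean of the 4 poly(I:C)-treated controls of its cell type (log2, y axis), for each array by group (x axis; numbers are replicates). Open circles are set A and filled triangles set B; Mx1-Cre monocyte replicates 1, 3 and 4 read -0.51, -0.34 and -0.74, and replicate 2 reads 0.022, while in neutrophils the triangles lie above the circles in both genotypes.

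The monocyte difference was not spread evenly over the arrays. The median over the 34 genes, against the control mean, was -0.27, 0.075, 0.075 and 0.15 in the 4 control monocyte arrays. It was -0.51, 0.022, -0.34 and -0.74 in the Mx1-Cre arrays. Replicate 2 thus stood among the controls and control 1 lay near the Mx1-Cre arrays, and both are in set A. With each monocyte array left out in turn, 0 or 1 members fell in 7 of 8 fits, and 13 fell without Mx1-Cre replicate 2 (7.1% of all genes fell then). That array is the Mx1-Cre array nearest the controls in these same values, so the count of 13 is no independent support. The mean of the Ly-6C(hi) monocyte markers was 8.96, 9.52, 8.92 and 8.54 in the Mx1-Cre monocytes. In the control monocytes it was 9.57, 9.74, 9.65 and 9.80. The mean of the neutrophil markers was 10.39, 9.62, 10.27 and 10.17 in the Mx1-Cre and 7.01, 7.01, 8.28 and 7.88 in the control monocytes. The relation of these means to the medians was not tested.

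Within set A no member passed (0.172% of all genes fell and 1.43% rose) and the median was -0.14, with 27 genes below 0 (54.5% of all). Within set B 16 members fell (5.33% of all genes) and the median was -0.69, with 32 below 0 (56.5% of all). Each fit had 2 arrays per group. The 16 were Rtp4, Ifit3, Oas1a, Oas2, Gbp3, Stat2, Dhx58, Ifitm3, Parp14, Zbp1, Ifih1, Lgals3bp, Xaf1, Usp18, Trim30a and Mx2.

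Ifit3 shows this most clearly. In control monocytes it read 7.35 and 7.79 in set A and 8.67 and 8.98 in set B, and in Mx1-Cre monocytes 7.30 and 7.54 in set A and 7.71 and 7.34 in set B. Its difference was -0.15 within set A and -1.30 within set B (limma adjusted p = 0.00151). The Mx1-Cre monocytes of set B were near the level of all arrays of set A, while the controls of set B were higher. Oas1a differed by -0.74 within set A and -1.14 within set B (adjusted p = 0.348 and 0.00296), and Lgals3bp by -0.60 and -1.06 (adjusted p = 0.492 and 0.0287).

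The difference between the sets was itself tested. The monocyte genotype difference was lower in set B than in set A for 34 of 34 genes (53.1% of all genes), with a median of -0.45 against -0.021. No member passed in limma (0.0373% of all genes did, in that direction), and the smallest adjusted p was 0.398, for Ifit3 (-1.15) and Dhx58 (-0.82). With the array set as a block, 6 members fell (4.45% of all genes), Oas1a (adjusted p = 0.00412), Ifitm3 (0.0281), Lgals3bp (0.0329), Ifih1 (0.0339), Irf7 (0.0449) and Gbp3 (0.0461). With the replicate block, over the numbers both genotypes share, 3 fell (1.52% of all genes), Oas1a (-0.97, adjusted p = 0.00934), Lgals3bp (-0.84, 0.0175) and Rtp4 (-0.76, 0.0276).

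**Figure D4:**
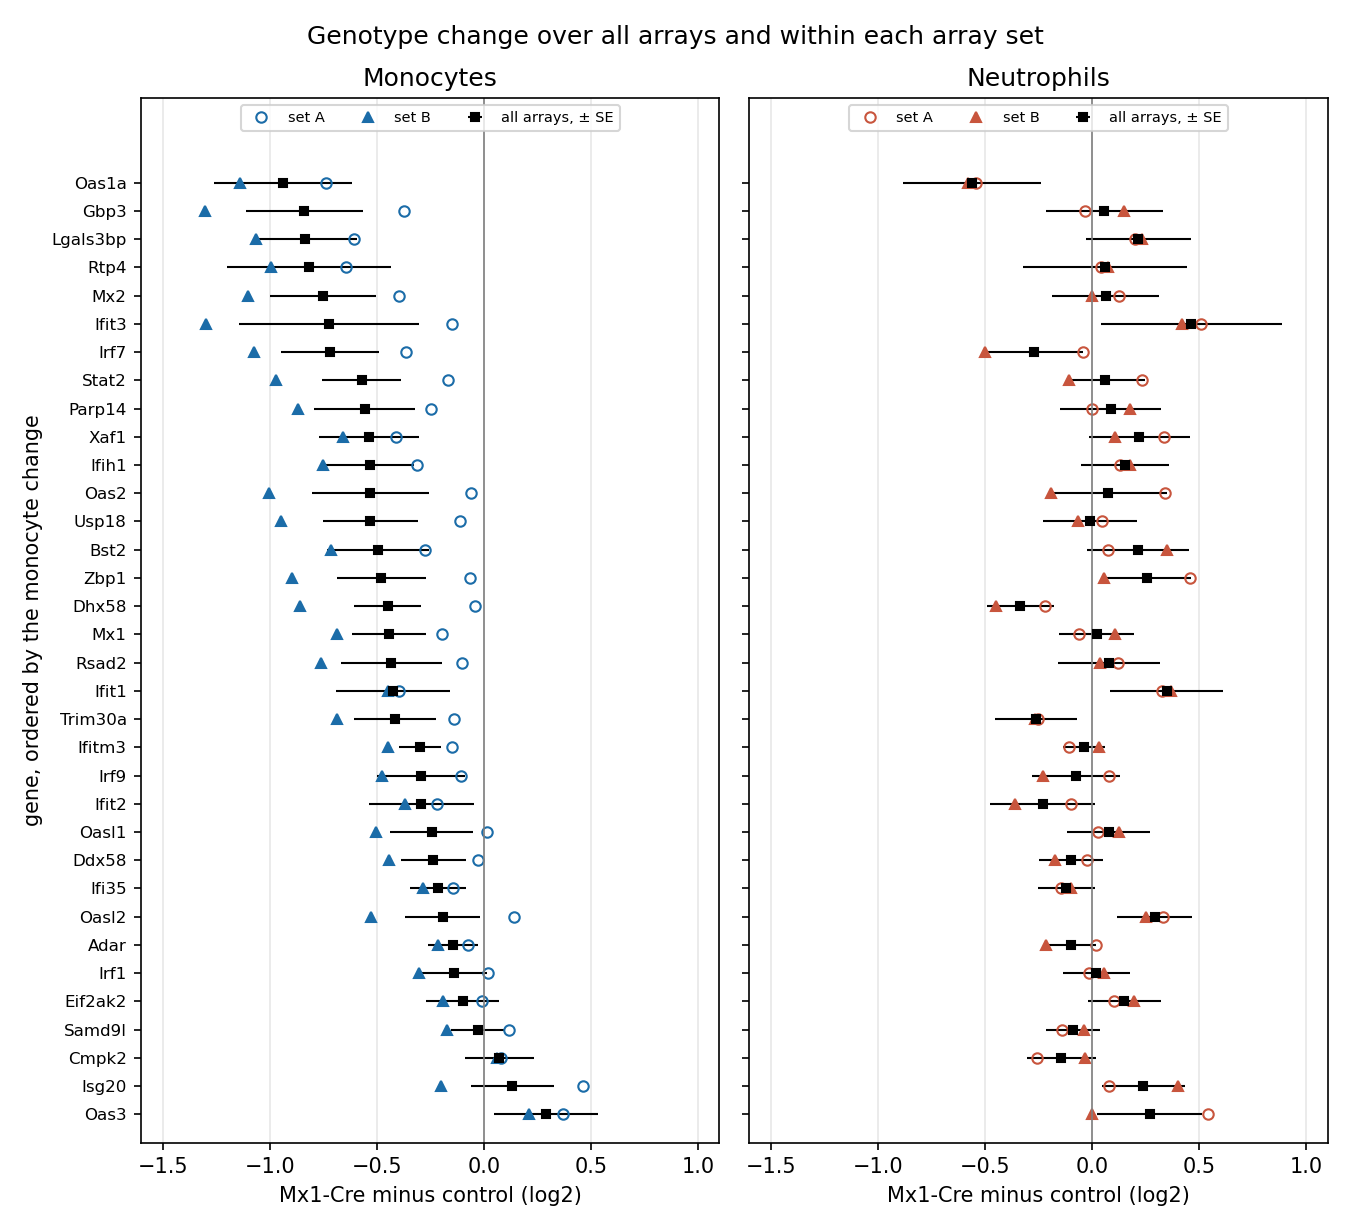
Mx1-Cre minus control (log2, x axis) for each gene (y axis) in monocytes (left) and neutrophils (right). Black squares with bars are the difference over all arrays ± SE, open circles the difference within set A and filled triangles that within set B; in monocytes each triangle lies to the left of its circle, and in neutrophils 18 of 34 do.

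In neutrophils no member passed in limma (0.105% of all genes tested rose and 0.0149% fell). Of the 34 genes 21 were above 0 (47.4% of all genes) and 13 below (52.6%), with a median of 0.061 against -0.0099 over all genes. Mx1, Mx2 and Gbp3, 3 of the 21, were under the 40th percentile in all or all but 1 of the treated neutrophil arrays, and without them 18 genes were above and 13 below 0, with a median of 0.062. At an unadjusted p under 0.05 there was 1 member, Dhx58, lower (2.52% of all genes were), and 0 were higher (2.58%). It was also the only member whose arrays did not overlap (1.59% of all genes were lower without overlap and 1.84% higher). Dhx58 read 5.80, 6.09, 5.83 and 6.10 in control and 5.72, 5.73, 5.36 and 5.67 in Mx1-Cre neutrophils, a difference of -0.34 ± 0.16 (SE, adjusted p = 0.971).

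Oas1a read 6.33, 6.79, 7.72 and 7.38 in control and 5.94, 6.09, 7.0 and 6.94 in Mx1-Cre neutrophils, a difference of -0.56 ± 0.32 (SE, limma adjusted p = 0.999). All 4 arrays of set B were above all 4 of set A, whereas the genotypes overlapped. Within the sets its difference was -0.54 and -0.58. Oasl2 read 7.79, 7.88, 8.01 and 8.37 against 8.03, 8.30, 8.25 and 8.64 (0.29 ± 0.18). Trim30a read 9.52, 9.83, 9.81 and 10.09 against 9.22, 9.63, 9.53 and 9.84 (-0.26 ± 0.19), and Ifit1 5.88, 5.78, 6.37 and 6.88 against 6.41, 5.91, 6.90 and 7.10 (0.35 ± 0.27). In each of these 3 genes the genotypes overlapped.

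Whether the genotype difference was larger in monocytes than in neutrophils was tested as the difference of the differences. No member passed in limma (2.68% of all genes did, 0.515% lower and 2.17% higher). Of 34 members 31 were below 0 (54% of all genes) and 3 above (46%), and the median was -0.45 against -0.024. At an unadjusted p under 0.05, 8 members were lower (5.95% of all genes). The smallest adjusted p was 0.133, for Lgals3bp, whose difference was -0.83 in monocytes and 0.22 in neutrophils (-1.05 ± 0.35, SE). With the replicate block it was called (adjusted p = 0.048), as 1 member (0.329% of all genes). Ifit3 had the largest gap, -0.72 against 0.46, with an SE of 0.60. With each array left out in turn, 0 members passed in 15 of 16 fits, and 4 passed without Mx1-Cre monocyte replicate 2 (2.51% of all genes), the Mx1-Cre array singled out above from these values.

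Among the Mx1-Cre samples 23 genes differed between the cell types in limma's test (62.1% of all genes tested), 12 higher in monocytes (30%) and 11 in neutrophils (32.1%). The median was 0.039, where the controls had 0.60, with 18 genes above 0 (45% of all genes) and 16 below (55%). Mx1 (3.02 ± 0.17), Mx2 (2.66 ± 0.25) and Gbp3 (2.10 ± 0.27) were again furthest above neutrophils, and Rtp4 (-1.79 ± 0.38), Samd9l (-1.45 ± 0.13) and Rsad2 (-1.41 ± 0.24) furthest below (log2 ± SE). These comparisons share their arrays with the genotype differences above.

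**Figure D5:**
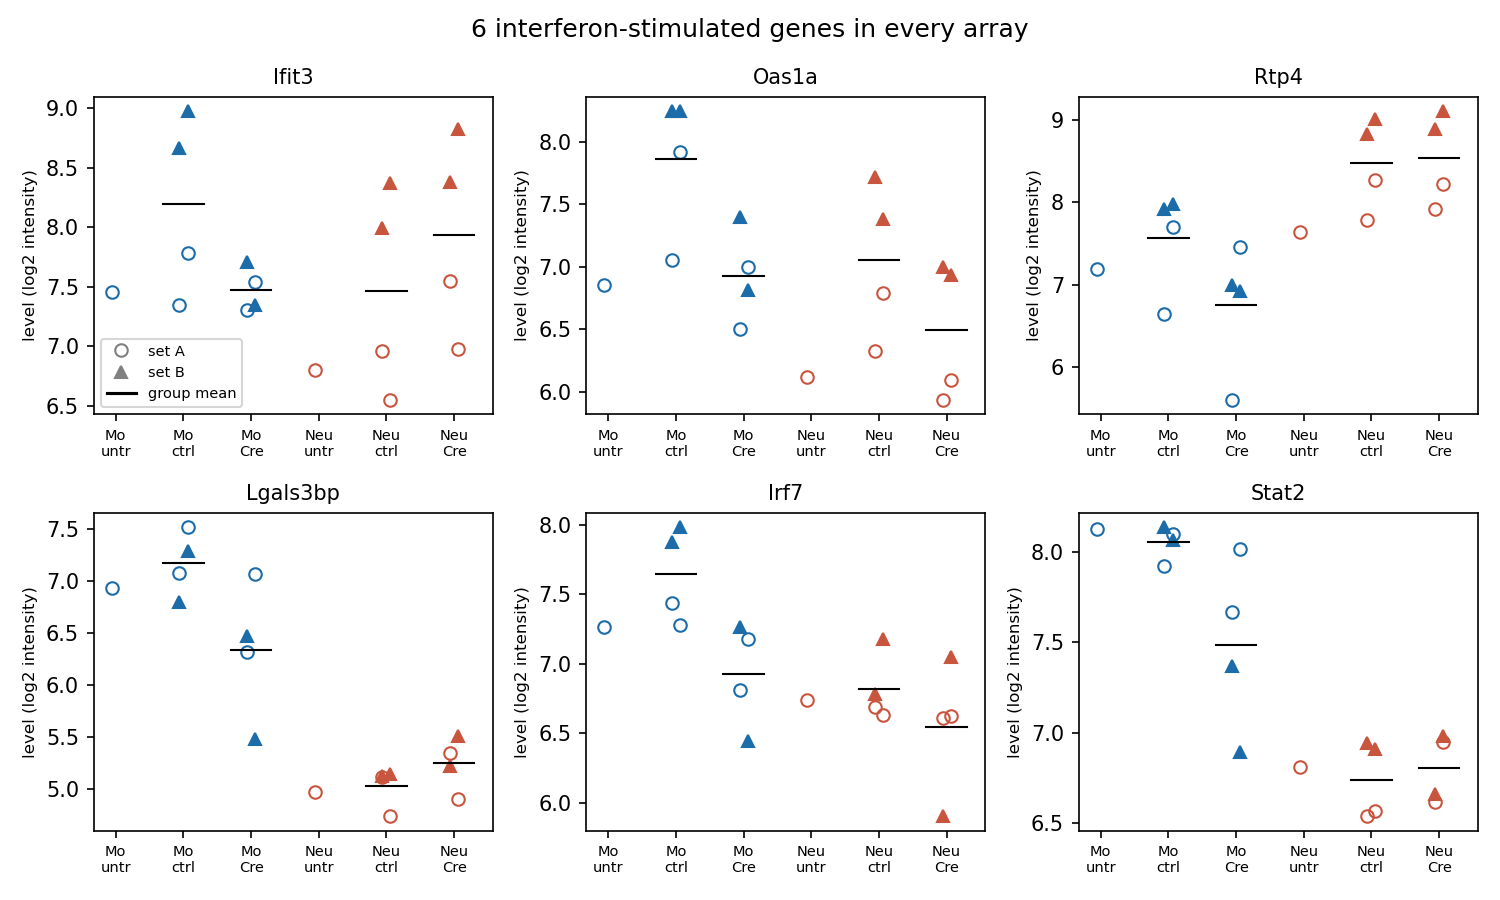
Levels (log2 intensity, y axis) of Ifit3, Oas1a, Rtp4, Lgals3bp, Irf7 and Stat2 in every array by group (x axis: Mo monocytes, Neu neutrophils, untr untreated control, ctrl poly(I:C) control, Cre poly(I:C) Mx1-Cre). Open circles are set A, filled triangles set B and bars the mean of 4 arrays; Ifit3 separates by set in every group of 4 except the Mx1-Cre monocytes, where all values lie between 7.30 and 7.71.

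Other genes of the interferon pathway were read from lists kept apart from the 34. Of all genes tested, 5.11% rose and 2.44% fell in Mx1-Cre monocytes, the shares to set beside the counts below. Of the interferon genes themselves 8 of 18 were tested, and Ifnk, an interferon of epithelia, fell in Mx1-Cre monocytes (-0.76 ± 0.18, limma adjusted p = 0.0121). Of 10 receptor and signalling genes 2 rose. Ifnlr1, the receptor chain for interferon-lambda, went from 4.46 ± 0.09 to 5.43 ± 0.46 (SD, n = 4). Its control level was near the 40th percentile, so the size of its rise is uncertain. Ifnlr1 was higher in control neutrophils, with control monocytes minus control neutrophils at -3.0 (log2). The kinase gene Jak2 rose by 0.61 ± 0.13 (limma adjusted p = 0.00693). Of 12 genes of nucleic acid sensing Tlr7, the endosomal sensor of single-stranded RNA, fell from 7.92 ± 0.28 to 6.68 ± 0.69 (SD, n = 4; adjusted p = 0.00461), and Tlr3, the sensor of double-stranded RNA, rose by 0.30 ± 0.086 at a level near the 40th percentile. None of 13 negative regulators passed, with Cish (0.32) and Irf2 (-0.43) having the smallest p. None of 19 interferon-gamma targets passed either, with Wars (-0.38) and Psmb10 (-0.37) having the smallest p.

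Of 40 further interferon-stimulated genes 3 rose (5.11% of all genes tested) and 5 fell (2.44%) in Mx1-Cre monocytes. Below 0 were 31 of the 40 (57.4% of all genes), with a median of -0.32 against -0.034 over all genes. Ms4a4c (-0.81), Phf11d (-0.75), Ddx60 (-0.72), Slfn8 (-0.95) and Parp12 (-0.48) fell. Ms4a4c also stands among the Ly-6C(hi) monocyte markers, as 1 of the 13. Ifitm1, a relative of Ifitm3, rose from 7.87 ± 0.29 to 9.63 ± 0.81 (SD, n = 4; limma adjusted p = 0.000443). Ifit1bl2, of the Ifit family, read 2.80 to 3.02 in control and 4.17 to 4.49 in Mx1-Cre monocytes (adjusted p = 6.73e-07), under and at the 40th percentile, so the size of its rise is uncertain. The third was Tlr3, which stands in both lists. In control neutrophils Ifitm1 read 11.39 and Ifit1bl2 7.41, both above control monocytes. In neutrophils no gene of these lists passed for genotype in limma. The smallest p was that of Ly6e, a surface antigen (0.41 ± 0.13, adjusted p = 0.614).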

How the data were processed

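The deposited values are log2 intensities of Affymetrix Mouse Gene 1.0 ST arrays, summarised per probe set with RMA by the authors, per the submitters' processing notes. Per the labels' protocols, RNA of the sorted cells was amplified (Ovation PicoSL). RMA's version and settings are not given here. Of 30177 probe sets 21789 had 1 symbol, 1621 several and 6767 none. Array medians were 4.81 to 4.92. Near-identical relatives (Ifit3 and Ifit3b, Oas1a and Oas1g) were not told apart.

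Tests used limma 3.58.1 (R 4.3.3), with 1 mean per group fitted to all 18 arrays at once, a trend in the variance prior, 12 residual degrees of freedom and two-sided Benjamini-Hochberg adjustment over 13387 genes at 0.05. The genes tested exceeded their array's 40th percentile in at least 4 arrays. The pipeline was tested on simulated data. Untreated arrays entered no test.

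The genes named with every value are those past the threshold in a genotype contrast, the 5 smallest p-values per genotype contrast, the 3 largest differences between control cell types in each direction, the largest untreated differences and the highest mean per role. Of each pathway list, genes past the threshold or else the 2 with the smallest p were named. Oas1a, Ifitm3, Ifih1 and Ifit3 were given in further comparisons after their values were seen. The genes, lists and comparisons were chosen with earlier results of these data known. Same-numbered control and Mx1-Cre arrays of a cell type deviated together (correlation 0.183 to 0.428 in 6 of 6 pairs), as did 10 other pairs of the same array set (0.127 to 0.348). For same-numbered monocyte and neutrophil arrays of a genotype it was 0.059 to 0.259, over 0.1 in 7 of 8 pairs. In 8 other such pairs of the same array set it was 0.123 to 0.237. The labels do not state a pairing, and the main tests between cell types took the arrays as independent. The number of arrays limits the precision.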

Additional observations from a re-analysis of the deposited data

Results flagged for a closer look

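In 4 of 136 groups of 4 arrays, 1 array of a gene stood apart from the other 3 by more than Dixon's limit, where chance gives about 1 in 20. Gbp3 in control monocytes was lowest in replicate 1, at 6.62, with the next array at 7.11. Lgals3bp in control neutrophils was lowest in replicate 2, at 4.74, with the next at 5.11. Mx2 in control neutrophils was highest in replicate 4, at 3.01, with the next at 2.53, all under the 40th percentile of their arrays. Adar in control neutrophils was highest in replicate 5, at 7.13, with the next at 7.02.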

How the results depend on the processing

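None of 16 differences (the 5 smallest p-values per genotype contrast and the 6 largest between control cell types) changed direction in 12 other settings or when 1 array was left out. Over all 34 genes, compared within each set and with the replicate block, the monocyte genotype difference turned above 0 in set A for Oasl2 (0.14), Samd9l (0.12), Irf1 (0.021) and Oasl1 (0.016), and below 0 for Isg20 in set B (-0.20) and Cmpk2 with the replicate block (-0.052). In neutrophils 7 genes turned sign in set A, 3 in set B and 7 with the replicate block. The count of members lower in Mx1-Cre monocytes was 1, and became 3 with the replicate block, 6 with the array set as a block or with array quality weights, 2 after quantile normalization, 16 in set B only, and 0 in set A only, with only the arrays compared, with arrays centred on their medians or with no filter on low values. Leaving out 1 array gave 0 to 13. Their median was -0.14 (set A) and -0.69 (set B). For the difference between cell types, 0 members became 1 with the replicate block and 4 in set B, and 0 to 4 without 1 array, with medians of -0.19 (set A) and -0.70 (set B). The replicate block moved no other count of members by over 1.5 times. The median of Mx1-Cre monocytes minus neutrophils, 0.039, was 0.33 in set A and reversed to -0.25 in set B and -0.17 after quantile normalization, and lay between -0.092 and 0.17 without 1 array; the cause was not tested. The median genotype difference in neutrophils lay between -0.020 and 0.14 without 1 array. Members lower by 1.5-fold in untreated cells, 3 in monocytes and 4 in neutrophils, became 1 and 0 against set A controls, 1 and 0 at 2-fold, and 1 to 5 and 2 to 6 without 1 control (5 without monocyte control 1, 1 without monocyte control 5, 2 without neutrophil control 4 or 5). All genes called for genotype in monocytes, 1010, ranged from 215 (set A) to 1724 (set B) and from 620 to 2001 without 1 array. Those called for the difference between cell types, 359, ranged from 72 to 731 and from 245 to 904. Those called in neutrophils, 16, ranged from 3 to 22 and from 8 to 17. Sets of 2 arrays per group, 1 untreated array and levels under or near the 40th percentile (Mx1, Mx2, Gbp3 and Ifit2 in neutrophils) limit these comparisons.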
